A study of Drosophila melanogaster with 3 samples.

Results

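The 8 Hox genes of Drosophila melanogaster (lab, pb, Dfd, Scr, Antp, Ubx, abd-A and Abd-B) and the genes of the Hox cofactors Extradenticle (exd) and Homothorax (hth) were examined for chromatin peaks of the transcription factor Senseless. They were taken by name, as 10 of the 13945 protein-coding genes annotated on the 6 main chromosome arms. For each gene, every peak was taken whose summit lay in the gene body or within 5 kb of it, an interval referred to as the gene's territory. Peaks came from chromatin immunoprecipitation and sequencing of whole embryos, collected 4 to 14 hours after egg laying and of both sexes, from a fly line that stably carries Senseless with green fluorescent protein (GFP) at its C-terminus. The labels' description gives an antibody against GFP, whereas their antibody field reads sens, which may name the target or the antibody. The series has 1 group of 3 biological replicates and no second genotype, treatment or age, so no test between conditions was possible. Whether the line keeps an untagged Senseless protein is not given in the sources used here, and peaks from whole embryos do not tell which cells held the protein at a site.

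Hox genes encode homeodomain proteins that give each body segment its identity, and in the fly they lie in 2 groups on chromosome arm 3R, the Antennapedia complex and the Bithorax complex. Hox proteins bind many sites together with Extradenticle, whose entry into the nucleus depends on Homothorax. Senseless is a zinc finger protein of sensory organ precursors. In the abdomen of the embryo, abd-A protein with its cofactors is known to compete with Senseless for overlapping sites in an enhancer of the EGFR pathway gene rho.

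The sequences around 8 of the summits are shown because they carry the strongest peak of each gene that had one, or an Exd-Hox site near a summit. Each is the plus strand of the dm6 assembly (RefSeq) from 50 bp before to 50 bp after the summit. Capitals mark matches on either strand to any of 8 short motifs: the Senseless core AAATCA, the Exd-Hox site TGATNNAT, its form TGATTTAT whose first 6 letters are the reverse complement of the Senseless core, the homeodomain core TAATTA, the Abd-B core TTTATG, the Homothorax core CTGTCA, the GAGA site GAGAG and the Pleiohomeotic core GCCAT. The windows of lab, pb, Scr and the strongest Antp summit held none of them.
lab, chr3R:6667394-6667494: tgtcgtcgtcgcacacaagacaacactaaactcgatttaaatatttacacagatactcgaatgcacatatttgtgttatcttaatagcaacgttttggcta
pb, chr3R:6723961-6724061: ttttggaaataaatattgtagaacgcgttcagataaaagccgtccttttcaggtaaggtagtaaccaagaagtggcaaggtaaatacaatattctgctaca
Scr, chr3R:6818750-6818850: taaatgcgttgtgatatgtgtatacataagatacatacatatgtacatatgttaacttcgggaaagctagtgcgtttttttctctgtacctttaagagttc
Antp, chr3R:6936296-6936396: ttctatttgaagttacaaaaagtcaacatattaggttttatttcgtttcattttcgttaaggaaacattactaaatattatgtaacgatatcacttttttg
Ubx, chr3R:16718153-16718253: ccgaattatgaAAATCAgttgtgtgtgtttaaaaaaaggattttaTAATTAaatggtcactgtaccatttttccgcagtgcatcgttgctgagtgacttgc
hth, strongest, chr3R:10628412-10628512: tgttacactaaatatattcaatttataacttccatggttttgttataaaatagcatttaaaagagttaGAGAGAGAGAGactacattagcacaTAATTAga
hth, Exd-Hox site, chr3R:10636186-10636286: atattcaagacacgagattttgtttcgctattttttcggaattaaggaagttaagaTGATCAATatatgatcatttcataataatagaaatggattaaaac
hth, upstream, chr3R:10641383-10641483: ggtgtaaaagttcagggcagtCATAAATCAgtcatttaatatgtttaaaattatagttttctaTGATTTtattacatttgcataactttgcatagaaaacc

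Senseless peaks were found mainly inside the long genes Antp and hth, and none of the reproducible ones lay at a transcript start. Of the 10 genes, lab, pb, Scr, Antp, Ubx and hth had a reproducible summit in their territory. Reproducible here means belonging to the 3811 peaks that the authors kept after thresholding on the irreproducible discovery rate (IDR). Dfd, abd-A, Abd-B and exd had none. Among all protein-coding genes the share was 42.4%. The exact 95% binomial interval around 6 of 10 runs from 26.2 to 87.8% and contains that share. With 10 genes it is too wide to tell whether the count, with territories of 5 kb, sets these genes apart. The interval is given for scale and is not a test, because the genes were taken by name and the Hox genes lie close together in their complexes. The comparison depends on how summits were assigned. By the gene body alone 5 of the 10 had one against 10.3% of all genes, and by the nearest transcript start 6 had one against 18.9%. Of the 13945 genes, however, 11968 were under 10 kb, a class that holds 1 of the 10. Gene length was not matched in these settings. The share also rose with gene length. Of genes under 10 kb it was 39.6%, against 0 of 1 here (exd). Of genes from 10 to 50 kb it was 58.4%, against 3 of 6 here (lab, pb and Scr, but not Dfd, abd-A or Abd-B). Of genes of 50 kb or more it was 62.5%, against 3 of 3 here (Antp, Ubx and hth).

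The 6 genes shared 18 reproducible summits, 9 at hth, 5 at Antp and 1 at each of the others. Per 100 kb of territory the 10 genes had 3.14 summits (exact 95% Poisson interval 1.86 to 4.96, counting error only), against 2.85 over the arms as a whole. The 8 Hox genes alone had 2.16 (interval 0.986 to 4.09), and hth stood at 6.34. Over gene territories, where a summit can count for several genes, the density was 4.61 for genes under 10 kb. It was 3.8 from 10 to 50 kb and 1.87 at 50 kb or more. In the longest class, hth (interval 2.9 to 12) stood above 1.87. Antp stood at 4.43, but its interval (1.44 to 10.3) contains 1.87. Ubx (1.14) stood below. In the middle class, lab (3.68), pb (2.26) and Scr (2.71) stood below 3.8. Each of them, like Ubx, had 1 summit, so its density only restates the length of its territory. Dfd, abd-A and Abd-B had none, as had exd in the shortest class. The list called by the authors on the pooled replicates holds 28357 peaks down to weak ones. In it the territories of the 10 genes held 202 summits, or 35.2 per 100 kb (interval 30.5 to 40.4), against 21.2 over the arms. Of the 202, hth alone held 79 (55.6 per 100 kb). The densities of exd (14.2) and abd-A (18.3) were below that of the arms, and those of the other genes ran from 21.7 (Scr) to 40.5 (lab). To leave out a replicate, a reproducible peak was required to be in the top 3811 of each remaining replicate. That left 4 genes and 12 summits without replicate 1, 3 genes and 9 summits without replicate 2, and 3 genes and 9 summits without replicate 3. The share of all protein-coding genes fell to 34.8%, 33.6% and 34.4% in these settings. Antp, Ubx and hth had a summit in each of them, and pb without replicate 1 alone. The reproducible list itself still rested on all 3 replicates. Antp, Ubx and hth each had a summit in the top 3811 of all 3, so they pass every such setting by construction.

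**Figure D1:**
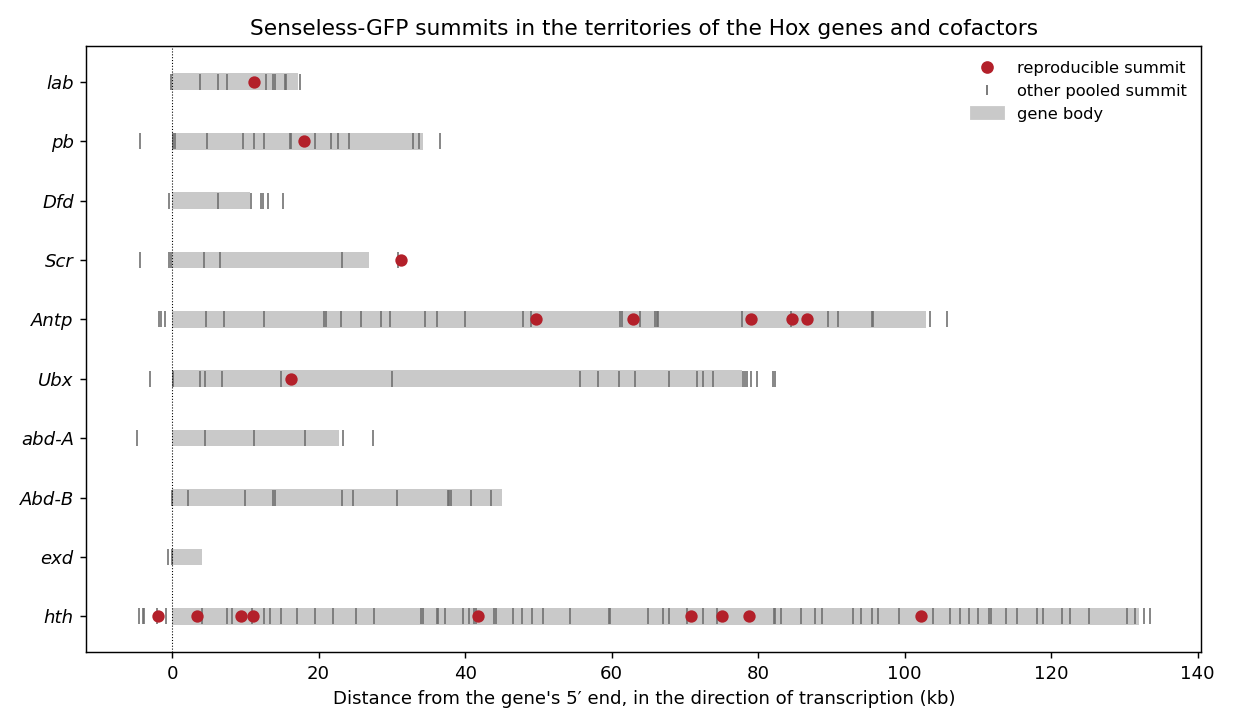
Summits in each territory by distance from the gene's 5′ end in kb, in the direction of transcription; red dots are reproducible summits, grey ticks other summits of the pooled list and grey bars gene bodies. The 18 red dots lie in 6 of the 10 genes, with 9 at hth and 5 at Antp.

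In each replicate's own list of its 3811 strongest peaks, 5.33 ± 0.577 of the 10 genes (SD, n = 3 replicates) had a summit. Replicate 1 had lab, Dfd, Antp, Ubx and hth, where 42.6% of all protein-coding genes had one. Replicate 2 had pb, Scr, Antp, Ubx, Abd-B and hth (42.6% of all genes), and replicate 3 had lab, pb, Antp, Ubx and hth (42.2%). Antp, Ubx and hth were therefore present in every replicate, abd-A and exd in none, and the other 5 genes in 1 or 2.

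Antp, which specifies thoracic segments, carried the strongest peaks of all 10 genes. The gene spans 102976 bp on 3R (6896253 to 6999228, minus strand, dm6) and has 3 distinct transcript starts. Its strongest summit, at 6936346, had a signal value of 408 in the pooled list and rank 614 of 3811, and it ranked 592, 608 and 817 in replicates 1, 2 and 3. It lay 3506 bp upstream of the nearest Antp start, and still within the gene as transcribed from the more distal starts. The next, at 6914584, had rank 859 and ranked 1093, 987 and 694 in the replicates. Both stood well inside the strongest 3811 of every replicate.

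The other Antp summits were weaker. That at 6912512 had rank 1566 (2277, 1381 and 1528 in the replicates), and that at 6920168 had rank 1792 (1548, 3072 and 1672). The last, at 6949526, had rank 3742, close to the end of the reproducible list, and ranked 9987, 3968 and 2544, so replicate 3 alone held it among its strongest 3811. All 5 summits fell in the same 60111 bp intron, the second of 5 in the longest Antp transcript, over a span of 37014 bp. The protein-coding gene CG46458 is annotated over the same stretch, so the peaks cannot be assigned to Antp alone. The peaks at 6936346 and 6912512 were 211 and 126 bp wide, whereas the median width in the list was 424 bp. Among genes of 50 kb or more, 15.0% had 5 or more reproducible summits.

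The 3 other Hox genes of the Antennapedia complex with a reproducible summit had 1 each, and none of these was among the strongest 3811 of all 3 replicates. At pb, which acts in the adult mouthparts, the summit at 6724011 lay in an intron 18052 bp inside the gene (6707800 to 6742063, minus strand). It had rank 1768 and ranked 1700 and 1483 in replicates 2 and 3 but 5137 in replicate 1. At lab, the gene of the most anterior Hox function in the head and of the midgut, the summit at 6667444 lay in the first intron, 3990 bp upstream of an internal lab start. It had rank 3002 and ranked 5252, 4642 and 1836, so only replicate 3 had it among its strongest. At Scr, which acts in the labial and first thoracic segments and in the salivary gland, the only summit lay outside the gene (6823120 to 6849981, minus strand). It stood 4320 bp beyond its 3′ end, at 6818800, with rank 3160 and ranks 6661, 2087 and 3869. Its nearest annotated start was that of a lysine tRNA gene, 1094 bp away, and the nearest start of a protein-coding gene was that of Dfd, at 26964 bp. With territories of 1 kb, Scr had no summit.

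Dfd, which acts in the maxillary and mandibular segments, had no reproducible summit. Its strongest pooled peak, at 6806997, ranked 7207 of 28357, lay in intergenic sequence 15161 bp from the Dfd start, and was nearest to mir-10, a miRNA gene of the complex, at 2585 bp. Replicate 1 ranked this peak at 3603 and replicate 2 at 7636, and replicate 3 had no peak there.

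Ubx was the only Hox gene of the Bithorax complex with a reproducible summit in its territory. Ubx, which specifies the third thoracic and first abdominal segments, spans 77804 bp (16656623 to 16734426, minus strand). Its summit at 16718203 lay in the 73624 bp intron of its longest transcript, 16223 bp inside the gene and 1924 bp from the start of the antisense transcript asRNA:PS4. It had a signal value of 171 and rank 2810, and it ranked 2821, 3502 and 2504 in the replicates, within the strongest 3811 of all 3. The window shown above holds a Senseless core 39 bp before the summit and a homeodomain core that ends at the summit base.

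The abdominal genes abd-A and Abd-B stood just below the reproducible list. The strongest pooled peak of abd-A, at 16811902 in an intron, ranked 4445 (4027, 8352 and 4738 in the replicates). The strongest of Abd-B, at 16949028 in an intron, ranked 4433 (7440, 4575 and 4275). A second Abd-B peak at 16958235, 2046 bp inside from an Abd-B start, ranked 4889, and in replicate 2 it ranked 3411, among the strongest there. With the pooled list limited to a q-value of 0.01, which keeps 5928 peaks, abd-A had 1 summit and Abd-B 3, while Dfd and exd still had none.

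**Figure D2:**
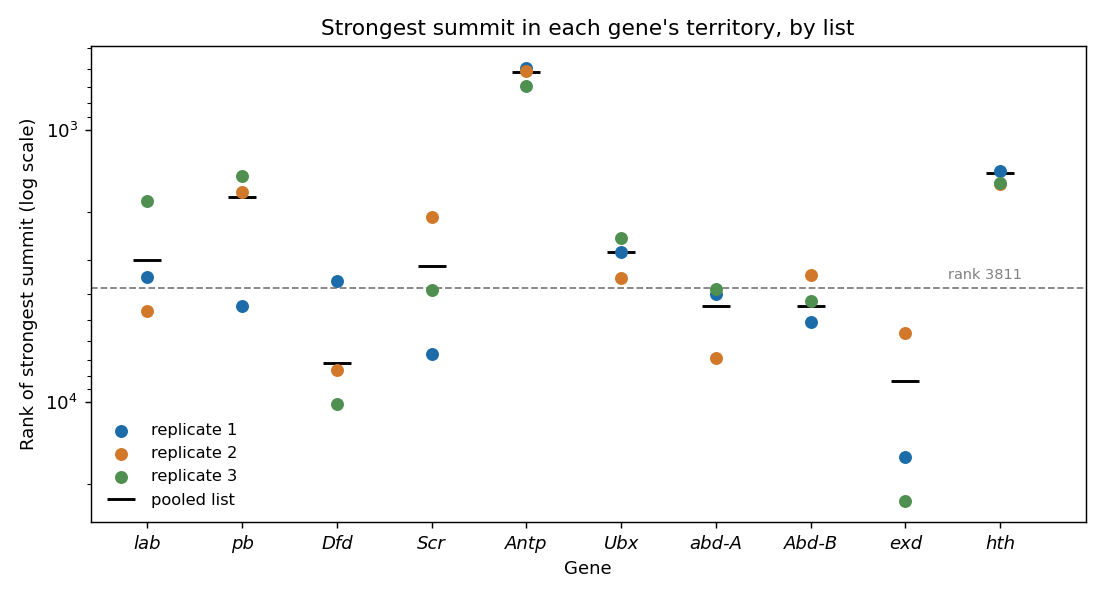
Rank of the strongest summit in each gene's territory (vertical, log scale, strongest at the top), in each replicate's list (dots) and in the pooled list (dashes); the dashed line is rank 3811. Antp, Ubx and hth lie above the line in every list, and abd-A and exd lie below it in every list, abd-A only just in replicate 3 (rank 3835).

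Between the genes of the complexes, other reproducible summits lay beyond 5 kb of any Hox gene. In the Bithorax complex, from 5 kb beyond Ubx to 5 kb beyond Abd-B (326 kb), there were 5 reproducible summits, of which only that of Ubx fell in a territory. The other 4 lay in the 72.8 kb between Ubx and abd-A, whereas the 97.2 kb between abd-A and Abd-B held no reproducible summit and 24 pooled ones. The strongest of the complex was at 16798875, with a signal value of 627 and rank 233, and it ranked 288, 375 and 116 in the replicates. It lay in intergenic sequence 8339 bp beyond the 3′ end of abd-A and 1725 bp from the nearest annotated start, that of lncRNA:CR45750. The nearest start of a protein-coding gene was that of Glut3, at 10564 bp. The summit enters abd-A's territory if this is widened to 10 kb. Its window had a GC content of 55.4% and held a GAGA site. The summits at 16748738 and 16769591 fell in introns of lncRNA:bxd, a long non-coding RNA of the regulatory region of Ubx, with ranks 2550 and 2031. That at 16794429 ranked 2133. No reproducible summit lay within 5 kb of the miRNA genes mir-iab-4 and mir-iab-8, which are read from opposite strands of the same site.

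The Antennapedia complex (348 kb, lab to Antp) held 13 reproducible summits, 8 of them in Hox territories. The others were 1 at the start of bcd (6759693, rank 1012), 1 at that of Ama (6763127, rank 1111), 1 between these genes (6760927, rank 3337), and 2 in long non-coding RNA genes. In lncRNA:CR44931, between ftz and Antp, the summit at 6881782 had rank 623 and ranked 392, 747 and 924 in the replicates, close to the strongest Antp summit. In lncRNA:CR42651, between Dfd and Scr, the summit at 6815067 had rank 3596. Per 100 kb the Antennapedia complex had 3.74 summits (exact Poisson interval 1.99 to 6.39) and the Bithorax complex 1.54 (0.499 to 3.58), intervals that overlap each other and both contain the 2.85 of the arms as a whole.

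Of the cofactors, hth had the most summits of all 10 genes and exd had no reproducible one. The hth gene encodes the Meis-class partner of Extradenticle and spans 132008 bp on 3R (10507561 to 10639568, minus strand). Its 9 summits amounted to 6.34 per 100 kb (exact Poisson interval 2.9 to 12), and its 79 pooled summits to 55.6 per 100 kb (44.0 to 69.3), the highest pooled density of the 10 genes. Among genes of 50 kb or more, 9 of 307 (2.93%) had 9 or more reproducible summits.

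Of the hth summits, 4 lay near the gene's 5′ end, from 1865 bp upstream of it to 11106 bp inside the gene. The strongest, at 10628462, was the one 11106 bp inside, in a first intron, and had rank 1448 (1417, 1587 and 1566 in the replicates). That at 10636236, 3332 bp inside, had rank 1586 (1530, 1641 and 1770). That at 10641433, 1865 bp upstream of hth and in an exon of the antisense RNA gene asRNA:CR44018, had rank 1915 (1638, 2290 and 2403). Each of these 3 was within the top 3811 in all replicates, and their replicate ranks differed by a factor of 1.12 to 1.47. The summit at 10630182 had rank 3131 and ranked 2848, 4435 and 2684.

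The other 5 hth summits lay 41730 to 102257 bp inside the gene, all in introns, with ranks from 2871 to 3580. None of them was among the strongest of all 3 replicates. That at 10568720 differed most, ranking 4686, 2613 and 12013. Those at 10564465, 10537311 and 10560769 fell below rank 3811 in replicate 1 only (4643, 4960 and 6443), and that at 10597838 in replicate 3 only (5066).

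The exd gene (X, 15992468 to 15996509, plus strand) is the shortest of the 10, at 4042 bp, and encodes the Pbx-class partner of the Hox proteins. Its strongest pooled peak, at 15992506, lay 38 bp inside the gene with rank 8346 of 28357. It ranked 15986 and 5594 in replicates 1 and 2, and replicate 3 had no peak there. A second pooled summit upstream of exd, of rank 28104, lay 105 bp from the start of the neighbour eIF5.

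**Figure D3:**
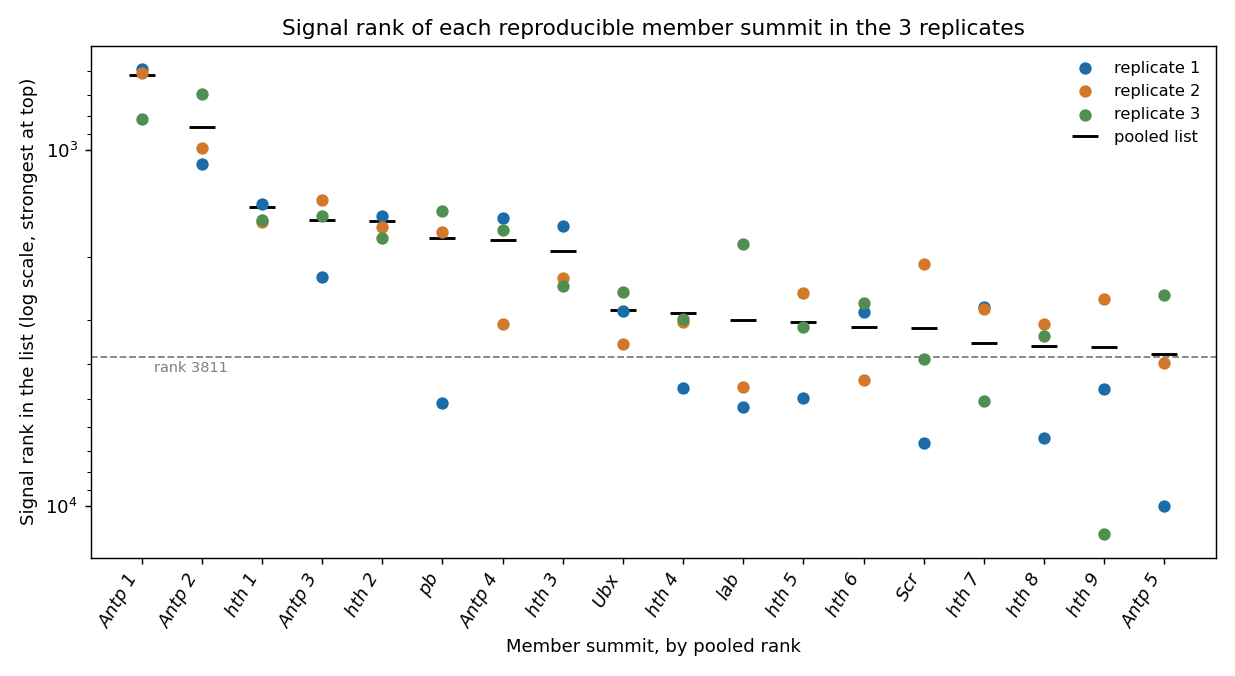
Signal rank (vertical, log scale, strongest at the top) of the 18 reproducible summits in each replicate (dots) and in the pooled list (dashes), ordered by pooled rank and numbered within a gene; the dashed line is rank 3811. From the summit of pooled rank 2871 on, each summit has at least 1 replicate below the line.

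The 18 summits ranked low within the reproducible list, with a median rank of 2840.5 against 1906 for the list as a whole, and 7 of them were among its 1905 strongest. All 18 lay inside a peak of each replicate's full list. Among the strongest 3811 of all 3 replicates there were 8 (44.4%, exact interval 21.5 to 69.2%), against 64.3% of all reproducible summits. Of the 7 stronger ones 6 were, where the share over all such summits was 96.2%, and of the 11 weaker ones 2 were, against 32.5%. Replicate 1 held 10 of the 18 among its strongest, and replicates 2 and 3 held 15 each. For these counts, and for the 18 found in the full lists, the share over all reproducible summits is not given here. They therefore do not tell these summits from the rest of the list. The count follows the number of peaks taken, being 4 with the 1905 strongest of each replicate (34.5% of all reproducible summits) and 16 with 7622 (92.8%).

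Placement differed from that of most reproducible peaks. None of the 18 lay within 500 bp of any annotated transcript start (0 of 18, exact upper bound 18.5%), against 48.7% of the whole list, and the smallest distance was 1094 bp. Introns held 16 of the 18 (88.9%, exact interval 65.3 to 98.6%), against 35.3% of the whole list. The other 2 were that of Scr, between genes, and that upstream of hth, in a non-coding exon. Both exact limits take the summits as independent, although 9 of the 18 lay at hth and 5 in the same Antp intron. Distances to the nearest start of the gene's own ran from 1865 to 76965 bp, with a median of 16330.5 bp. To the nearest start of any gene the median was 9499.5 bp. That compares with 539 bp for the whole list and 2651 bp for all intronic summits. Long introns leave more sequence far from starts, and the part of gene length in these differences was not tested.

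Weak peaks did reach the starts. At their own starts (within 500 bp), 0 of the 10 genes had a reproducible summit, against 16.4% of protein-coding genes, but 9 had a pooled one, against 49.6%. Only abd-A had none, although replicate 2 alone had one there, at rank 6917. The highest pooled ranks at own starts were 6544 for Antp, 7179 for Ubx and 8346 for exd, and the lowest was 15153 for pb. In replicate 3, Dfd, exd, abd-A and hth had no peak at a start of their own.

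**Figure D4:**
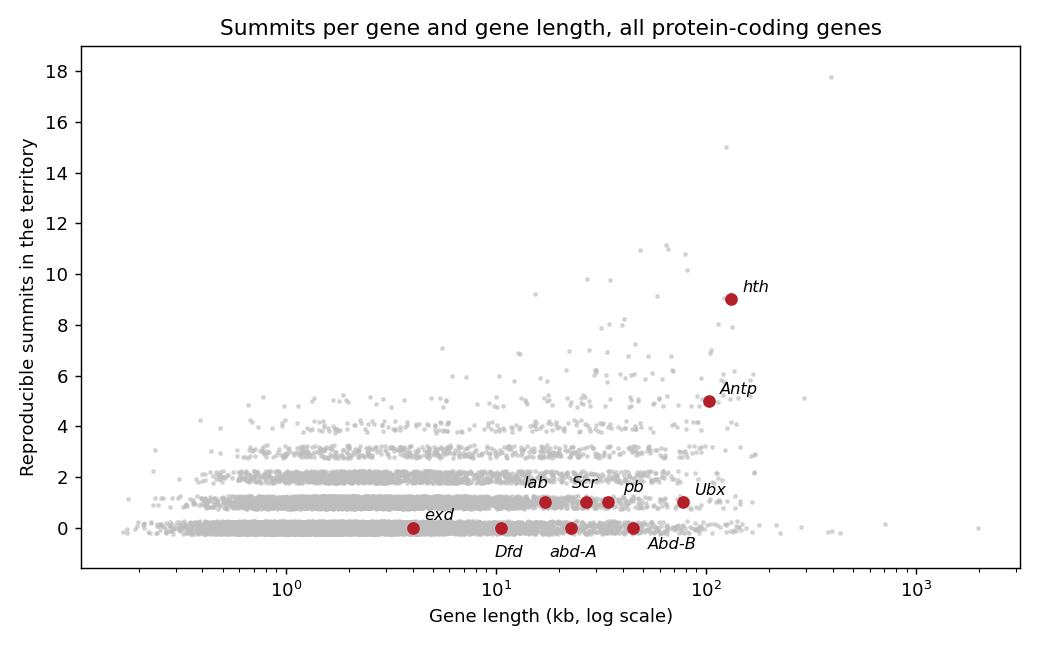
Reproducible summits in the territory (vertical) against gene length in kb (horizontal, log scale) for the 13945 protein-coding genes (grey, spread slightly up and down for visibility) and the 10 genes named (red). Antp, with 5 summits, and hth, with 9, lie among the longest genes, and the other 8 have 1 or 0.

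The Senseless core and the Exd-Hox site occurred together at a single summit, the one upstream of hth. Its window, shown last among the sequences, holds TGATTTAT on the minus strand, from 28 to 21 bp before the summit, so that an Exd-Hox site and a Senseless core use the same bases. A second Senseless core lies on the minus strand 13 bp after the summit, and an Abd-B core overlaps the shared site, as its letters overlap those of TGATTTAT. This shared form was present at 1.26% of all reproducible summits, and at 2.13% of those with a GC content of 30% or less. The other Exd-Hox match, TGATCAAT, began 6 bp after the hth summit at 10636236 and holds no Senseless core. Exd-Hox sites were thus found at 2 of the 18 summits (11.1%, exact interval 1.38 to 34.7%), against 8.0% of all reproducible summits. Among reproducible summits with a GC content of 30% or less, 11.4% had one, so the count does not set the 18 apart. None of the 9 summits of the Hox genes themselves had one within 50 bp.

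The Senseless core was found at 6 of the 18 summits (33.3%, exact interval 13.3 to 59.0%), against 14.2% of all reproducible summits, a share that lies inside the interval. These were 2 at Antp (6920168 and 6949526), that of Ubx and 3 at hth. Windows were AT-rich, with a mean GC content of 31.5% ± 5.57 (SD over 18 summits) against 34.3% ± 8.66 for the whole list. Of all reproducible summits with a GC content of 30% or less, 17.3% had the core, and of intronic ones 15.8%. The homeodomain core was at 2 (whole list 9.32%), the Abd-B core at 2 (13.9%), the GAGA site at 4 (10.2%), the Pleiohomeotic core at 1 (14.3%) and the Homothorax core at 0 (3.02%). Among all reproducible summits with a GC content of 30% or less, these shares were 15.1%, 19.3%, 5.4%, 7.88% and 1.56% in the same order. The 18 summits were not matched for GC content. At 7 of the 18 no motif was found, a count for which the share over the whole list is not given here. The GAGA site is bound by the GAGA factor, encoded by Trl, which acts at Hox regulatory DNA, and its matches lay at Antp (6914584 and 6920168) and hth (10628462 and 10568720). A match shows only that the letters are present.

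Genes that work with or under the Hox genes showed summits in part. Of 4 homeobox genes of the Antennapedia complex that have lost Hox function (bcd, zen, zen2 and ftz), only bcd had a reproducible summit. Of 9 Hox collaborators, 4 had one. The strongest lay 4331 bp upstream of slp2, with rank 139. It was followed by slp1 (rank 913), cad (rank 2123, nearest to the start of Pomp) and ftz-f1 (rank 3082). The collaborators tsh, tio, en, disco and disco-r had none, and the strongest pooled peak of tsh ranked 3829, just outside the reproducible list.

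Of 10 known Hox target genes, 6 had a reproducible summit. The strongest was at fkh, a salivary gland regulator under Scr, 207 bp upstream of its start with rank 484. The next were in an intron of dpp, a BMP ligand gene under Ubx in the midgut (rank 591), 4915 bp upstream of the cell death gene rpr (rank 763), and 547 bp upstream of dac (rank 2162). The gene rho, at whose enhancer Senseless and abd-A are known to compete, had none, and its strongest pooled peak ranked 4884. Of 16 Polycomb and trithorax group genes, which keep Hox genes silent or active, 12 had a summit. The strongest were those in the territories of ash1 (rank 4), ph-p (rank 8), Trl (rank 47) and Pc (rank 49), but that of ash1 lay 87 bp from the start of CG14100 and that of Pc 70 bp from that of CG11309. The strongest summits of Psc, Sce and Pcl were likewise nearest to the start of another gene. These were lncRNA:CR44339 (207 bp), Hsdl2 (269 bp) and pAbp (513 bp). At the rest of the 12 the strongest summit was nearest to a start of the gene itself. The counts of all these lists stand beside the 42.4% of all protein-coding genes.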

How the data were processed

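Peaks of Senseless-GFP were used from the 5 dm6 narrowPeak lists: 1 per replicate (30000, 30000 and 27681 peaks), 1 from the pooled replicates (28357) and the optimal IDR list (3811), which is the top of the pooled list. The deposited text notes name only the immunoprecipitated alignments as input of the dm6 lists, and no control. Which aligner and caller were used is not given in the sources used here. Each deposited peak has a signal value of unstated scale, used here to rank peaks within a list, a deposited −log10 q-value, and a summit offset. Fragments after sonication were 200 to 800 bp long, per the labels. Library depth is unknown, and intervals cover counting error over peaks or genes only. They take summits or genes as independent, which summits of the same gene and genes of the same complex may not be, so they can be too narrow. The dm3 lists were not used here.

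Genes came from Ensembl release 115 on the same assembly and sequence from the RefSeq FASTA. Positions are 1-based on dm6. A summit was in a replicate where it lay inside one of its peaks, with the strongest rank taken. Each summit got 1 placement: promoter first (within 500 bp of an annotated start, transposable elements left out), then untranslated or coding exon, non-coding exon, intron, and otherwise intergenic. Motif matches on either strand were counted within 50 bp of each summit. Counts are read against the same count over all genes or summits, without a test. All 10 genes are named with all their reproducible summits, those without one by their strongest pooled peaks, and up to 4 genes of each related list by signal. Further genes of these lists are named where they had no summit or where theirs was nearest to another gene's start. The genes, lists, motifs and settings were chosen with earlier results of these data known. The counting of summits in territories and the motif search were checked on simulated peaks and planted motifs, and the other steps were not. Python 3.11.15, numpy 2.4.6, pandas 2.3.3, scipy 1.17.1 and matplotlib 3.10.9 were used.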

Additional observations from a re-analysis of the deposited data

How the results depend on the processing

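The number of genes with a reproducible summit, 6 of 10, stayed within 1.5 times under territories of 0, 1 or 10 kb (5, 5 and 7), under assignment to the nearest start (6, with Dfd in place of Scr) and at a pooled q-value of 0.01 (8). The share over all genes, 42.4%, moved more, to 10.3%, 24.9%, 56.7%, 18.9% and 54.2% in the same order. The count was 3 (pb, Antp and hth) with the 1905 strongest peaks, where the share over all genes was 26.3%, and 3 to 4 with a replicate left out, a setting that keeps fewer peaks. The 18 summits became 7 with the 1905 strongest peaks, 34 at the pooled q-value of 0.01, and 9 to 12 with a replicate left out. Summits among the strongest of all 3 replicates, 8 of 18, numbered 4 with 1905 peaks per replicate, 16 with 7622 and 8 with summits matched within 150 bp. None of the 18 lay at a transcript start with windows of 250 or 1000 bp, with coding genes' starts alone, with territories of 1 kb, or with transposable element starts included (added after the data were seen). Of all reproducible summits 38.8%, 58.6%, 45.7% and 49.3% did with the windows of 250 and 1000 bp, coding starts and transposable elements. The Exd-Hox site was at 4 summits within 100 bp and 1 within 25 bp, where the whole list had 14.8% and 3.73%. The Senseless core was at 10 and 2, where the whole list had 25.8% and 7.27%. Signal values have no stated scale, and peaks below rank 3811 differed between replicates. No paired analysis was possible because the series has 1 group.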
